A study of Mus musculus with 9 samples.

Results

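Snd1 lies on mouse chromosome 6, and 9 genes on either side of it are described here in livers of Snd1 knockout mice and of mice with a mutated SND1 Tudor domain. They are Cadps2 and Grm8 on the side of the chromosome start, and Impdh1, Calu, Irf5, Tnpo3, Exoc4, Cald1 and Fmc1 on the other side, 9 of the 19944 genes in the deposited table. They had been picked from these same libraries for a difference between genotypes or for their closeness to Snd1. Their own values are therefore given as a description. Calls of the test over all genes are counted for them further on, and nothing is read from those counts. All 9 lie within 10 Mb of Snd1 and all 9 passed the filter on low values, Grm8 only through its knockout libraries.

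The 3 groups, with 3 libraries each, were Snd1 knockout livers (KO), livers with a knocked-in Tudor domain mutation (KI) and wild-type livers (WT). All were from male mice 60 days old on normal chow, with FVB named in the titles, and the tissues were collected together. The labels give neither the design of the KO and KI alleles, nor the embryonic stem cell or strain origin of the DNA around Snd1, nor whether the animals were littermates. The labels' descriptions carry a separate number for each library and do not say what the libraries of a group shared, so p-values measure the spread between these 9 libraries. The labels call the material hepatocyte, while the tissue is given as liver. The 8 hepatocyte markers took 5.33% to 9.99% of each library's total, beside markers of macrophages, stellate cells and endothelium.

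SND1 joins nuclease-like repeats to a Tudor domain, which recognises proteins methylated on arginine. As background, when an allele is made in 1 mouse strain and crossed into another, DNA flanking the altered gene can travel with it. For this reason neighbours of a targeted gene are often looked at apart from the rest of the genome. The deposited values hold no sequence variants, and the origin of the flanking DNA was not tested.

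Snd1 itself (chr6:28475139-28935162, forward strand, GRCm38, gene ENSMUSG00000001424) checks the KO labels. Its normalized count, which is reads per gene divided by a size factor of the library, was 227, 414 and 359 in KO, 5373, 7941 and 5595 in KI and 6951, 8446 and 6512 in WT. The KO libraries were far below all others, and KI overlapped WT, so these counts cannot check the KI and WT labels against each other. Recovered totals lay between 59678412 and 66384374 reads per library. Libraries are named by group and replicate number, such as KI_3. Transcripts of the exocrine pancreas were found in 3 libraries, where 14 markers took 5.91% (KI_3), 0.515% (KI_1) and 1.24% (WT_3) of the total, and at most 0.00525% in each of the other 6 libraries. Results that rest on those 3 libraries are given with and without them. Without them, the KI group is KI_2 alone.

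The genes fall into a few roles. Calu, Cadps2 and Exoc4 encode proteins of the secretory route. Grm8 encodes a glutamate receptor, Cald1 an actin-binding protein, Irf5 a transcription factor of innate immunity, and Tnpo3 a nuclear import receptor. Impdh1 encodes an enzyme of guanine nucleotide synthesis, and Fmc1 a mitochondrial protein named after a yeast assembly factor of ATP synthase.

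Promoter sequence is shown for Calu, Grm8 and Exoc4, 3 genes whose KO libraries stood above all others and whose promoters held at least 2 CCAAT boxes, the letters of a common promoter element. Each line is the 250 bases upstream of a RefSeq start on GRCm38.p6, 5′ to 3′ on the gene's strand. Grm8 has 3 such starts, and Impdh1 and Cald1 have 2 each, of which 1 per gene was searched. Capitals mark matches to the searched motifs, which here are CCAAT on either strand (ATTGG when read from the other) and, in Exoc4, also TTCNNNGAA. The stretches are chr6:29347856-29348105 on the forward strand for Calu, chr6:28135147-28135396 on the reverse strand for Grm8, and chr6:33248878-33249127 on the forward strand for Exoc4.
Calu: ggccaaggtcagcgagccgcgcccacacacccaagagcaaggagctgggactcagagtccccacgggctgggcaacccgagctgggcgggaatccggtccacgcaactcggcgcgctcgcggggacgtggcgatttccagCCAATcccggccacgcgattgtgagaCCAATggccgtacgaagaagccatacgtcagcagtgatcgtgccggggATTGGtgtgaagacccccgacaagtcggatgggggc
Grm8: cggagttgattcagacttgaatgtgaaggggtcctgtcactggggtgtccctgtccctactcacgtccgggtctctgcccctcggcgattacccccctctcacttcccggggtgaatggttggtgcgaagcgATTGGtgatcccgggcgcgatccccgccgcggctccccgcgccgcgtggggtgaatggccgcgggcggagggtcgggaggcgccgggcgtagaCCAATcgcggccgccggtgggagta
Exoc4: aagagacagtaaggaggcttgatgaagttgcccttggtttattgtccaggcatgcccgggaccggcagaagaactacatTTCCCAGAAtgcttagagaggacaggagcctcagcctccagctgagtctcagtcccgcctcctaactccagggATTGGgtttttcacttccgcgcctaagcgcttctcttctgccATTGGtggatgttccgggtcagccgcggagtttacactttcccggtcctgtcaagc
CCAAT was found 3 times in Calu, 2 times in Grm8, 2 times in Exoc4, 1 time in Cald1 and not in the rest of the 9. Of 32851 RefSeq promoters of that length, 33.8% hold it at least 1 time, and the share with 2 or more matches is not given. The STAT motif TTCNNNGAA was found once, in Exoc4, and is in 7.02% of promoters. The E-box CACGTG was found once, in Cadps2, and is in 6.02% of promoters. The heat shock motif GAANNTTC and the TATA box TATAAA, held by 6.69% and 12.4% of promoters, had no match in the 9 windows. The RefSeq start used for Fmc1 lies 1359 bases from its GENCODE start, inside the GENCODE gene body. These motifs were searched on both strands and chosen with the expression values known, and a match describes letters and not a bound site.

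The secretory genes were high in KO. Calu, for calumenin, a calcium-binding protein of the endoplasmic reticulum and secretory pathway, lies 413 kb from Snd1 (chr6:29348069-29377110). Its normalized count was 13323, 22120 and 18278 in KO, 7931, 7961 and 7407 in KI and 7785, 7184 and 8092 in WT. Every KO library was above every other library, and KI overlapped WT. The means were 17907 ± 4410 in KO, 7766 ± 311 in KI and 7687 ± 462 in WT (SD, n = 3 each), a log2 fold change of 1.19 ± 0.17 for KO against WT and 0.02 for KI against WT (SE, the same in each comparison of a gene). A 397-base stretch of Calu exons is also annotated to Opn1sw on the other strand, whose mean over all libraries was 1.95.

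Cadps2, which encodes a priming factor for dense-core secretory vesicles, lies 4.64 Mb from Snd1 towards the chromosome start (chr6:23262773-23839421). It had 1441, 2634 and 2244 normalized counts in KO, 901, 1143 and 998 in KI and 1123, 1034 and 1064 in WT. The KO libraries were above all others, although KO_1 stood nearer to them than KO_2 and KO_3 did. The log2 fold change was 0.93 ± 0.20 for KO against WT, -1.02 for KI against KO and -0.09 for KI against WT.

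Exoc4, a subunit of the exocyst, the complex that tethers secretory vesicles to the plasma membrane, lies 4.31 Mb away on the other side (chr6:33249085-33973979). It had 1143, 1077 and 1095 normalized counts in KO, 681, 697 and 753 in KI and 769, 902 and 766 in WT. KO was above WT and WT above KI, with no overlap in any pair of groups. The log2 fold change was 0.45 ± 0.11 for KO against WT, -0.64 for KI against KO and -0.19 for KI against WT.

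**Figure D1:**
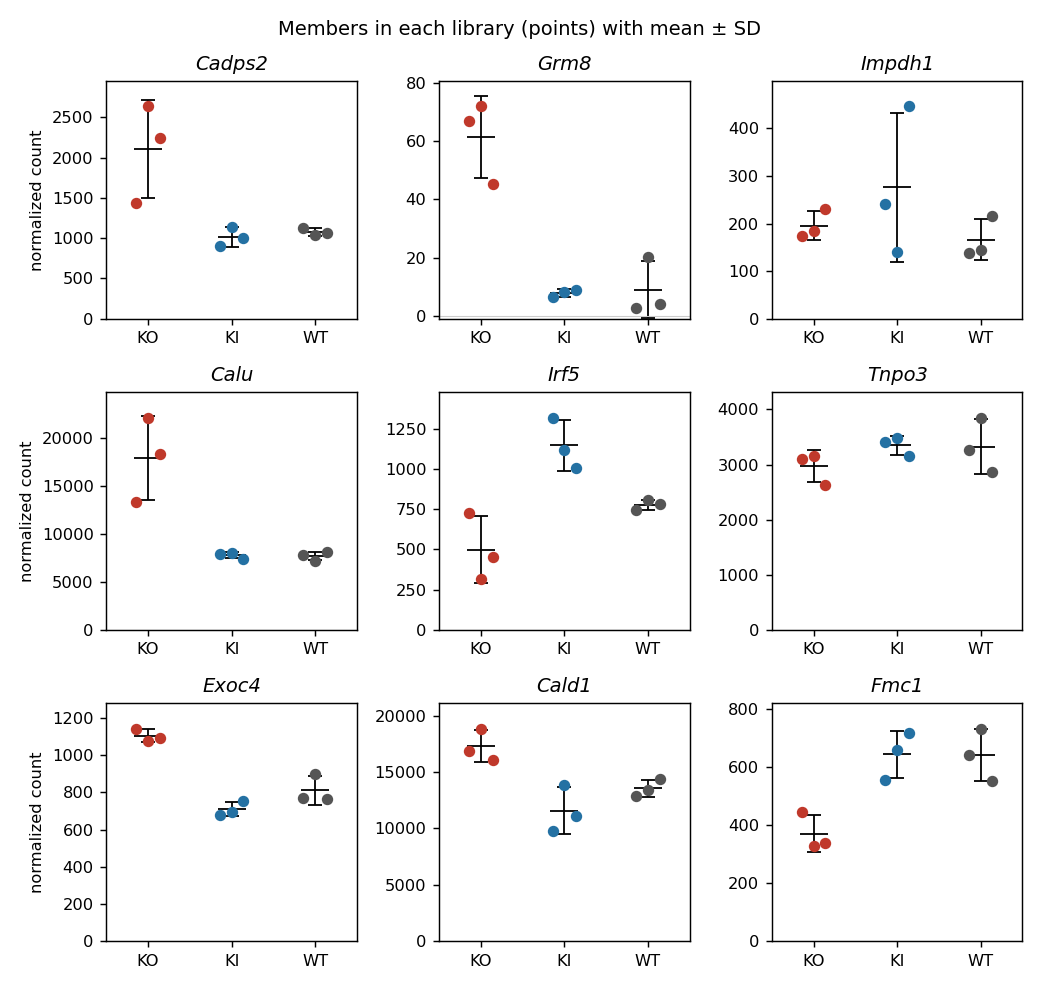
Normalized count (y axis, linear, 1 panel per gene) of the 9 genes in each library of the KO, KI and WT groups (x axis). Points are libraries and bars are mean ± SD (n = 3). In Calu, Cadps2, Grm8, Exoc4 and Cald1 the 3 KO points lie above all others, and in Fmc1 and Irf5 below all others.

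Grm8 encodes a metabotropic glutamate receptor that lowers cyclic AMP and is best known from neurons. It is the nearest of the 9 on the side of the chromosome start, 340 kb from Snd1 (chr6:27275119-28135178). It had 66.9, 71.9 and 45.2 normalized counts in KO, 6.44, 8.22 and 8.97 in KI and 2.88, 20.2 and 4.01 in WT, which correspond to 66, 71 and 50 reads, 6, 9 and 8 reads, and 3, 21 and 4 reads. All KO libraries were above the rest, and the WT libraries were spread widely, with WT_2 above the KI libraries. Means were 61.4 ± 14.2 in KO, 7.88 ± 1.3 in KI and 9.04 ± 9.71 in WT, and the log2 fold change was 3.04 ± 0.65 for KO against WT and -2.80 for KI against KO. These are few reads, so counting error adds to the spread in KI and WT. Of the 8 markers of neurons and neuroendocrine cells, 5 had a row (Chgb, Snap25 and Tubb3 were not analysed here), and their summed normalized count was 34.4 to 62.4 in KO, 18.3 to 1690 in KI and 22.2 to 95.1 in WT. The synaptic vesicle marker Syp had 54.8, 32.4 and 62.4 in KO, 67.6, 18.3 and 37.0 in KI and 39.3, 22.2 and 24.0 in WT, and the insulin genes Ins1 and Ins2 were above 0 only in KI_3 and WT_3 among the 9 libraries. Without KI_1, KI_3 and WT_3 the log2 fold change of Grm8 in KO against WT was 2.75.

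Cald1, for caldesmon, which binds actin, tropomyosin and calmodulin, lies 5.66 Mb from Snd1 (chr6:34598500-34775473). It had 16915, 18861 and 16091 normalized counts in KO, 9807, 13880 and 11075 in KI and 12880, 13418 and 14374 in WT. The KO libraries were highest, while KI and WT overlapped. The log2 fold change was 0.35 ± 0.14 for KO against WT and -0.59 for KI against KO. Without the 3 libraries that hold pancreatic transcripts, KI against KO was -0.31, with KI_2, the highest KI library, alone in KI. The 10 markers of stellate cells and smooth muscle, of which smooth muscle is rich in caldesmon, summed to 12414 to 18639 in KO, 10272 to 19068 in KI and 12137 to 13263 in WT. In KO against WT, limma and edgeR called 0 of them and DESeq2 1, with 2 at an unadjusted p under 0.05. In bulk tissue, fewer cells of a type and less RNA per cell cannot be told apart.

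Irf5, a transcription factor that acts downstream of Toll-like receptors in macrophages, lies 591 kb from Snd1 (chr6:29526625-29541871) and ranked the groups in another way. It had 728, 314 and 455 normalized counts in KO, 1320, 1116 and 1004 in KI and 743, 805 and 781 in WT. KI was highest, WT intermediate and KO lowest, with no overlap, but KO_1 was only just under the lowest WT library. Means were 499 ± 211 in KO, 1147 ± 160 in KI and 777 ± 31.3 in WT. The log2 fold change was -0.72 ± 0.25 for KO against WT, 0.55 for KI against WT and 1.27 for KI against KO. The value for KO against WT was -0.43 without KO_2 and -1.04 without KO_1. Without the 3 libraries with pancreatic transcripts the 3 values were -0.72, 0.53 and 1.24, with KI_2 alone in KI. The 10 macrophage markers summed to 14505 to 36412 in KO, 15095 to 27405 in KI and 13157 to 25168 in WT, and none was at 0. In KO against WT, limma called 1 of the 10, the scavenger receptor gene Marco, as higher. The part of macrophages in the Irf5 values was not tested.

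Tnpo3, the receptor that carries serine- and arginine-rich splicing factors into the nucleus, overlaps the end of Irf5 on the opposite strand (chr6:29540827-29609887). It had 3108, 3158 and 2637 normalized counts in KO, 3408, 3487 and 3161 in KI and 3267, 3852 and 2858 in WT. Both comparisons against WT overlapped, and the lowest KI library was just above the highest KO library. The log2 fold change was -0.16 ± 0.13 for KO against WT and 0.02 for KI against WT. Irf5 and Tnpo3 share 411 exon bases, 14.1% of the exon length of Irf5 and 3.14% of that of Tnpo3. The libraries were made with a stranded kit, but the strand setting of the counting is not given in the sources used here, so reads in that stretch may have been counted to either gene.

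Fmc1, far out at 9.60 Mb (chr6:38533502-38539449), was lowest in KO, like Irf5. It had 446, 329 and 338 normalized counts in KO, 556, 658 and 719 in KI and 643, 733 and 552 in WT. The KO libraries were below all others and KI overlapped WT. The log2 fold change was -0.80 ± 0.17 for KO against WT, 0.80 for KI against KO and 0.01 for KI against WT. In yeast, Fmc1 is needed to assemble the ATP synthase at high temperature.

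Impdh1, which makes the rate-limiting step of guanine nucleotide synthesis together with its paralogue Impdh2, is the closest of the 9 at 265 kb (chr6:29200434-29216364). It had 174, 183 and 230 normalized counts in KO, 242, 140 and 446 in KI and 139, 144 and 216 in WT. All groups overlapped. The 3 libraries with pancreatic transcripts held 446, 242 and 216. With them left out, KI was KI_2 alone. The log2 fold change of KI against WT was then -0.02, against 0.60 over all libraries. That of KI against KO was -0.47 without them and 0.34 over all libraries. The part of the pancreatic transcripts in these values was not tested.

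**Figure D2:**
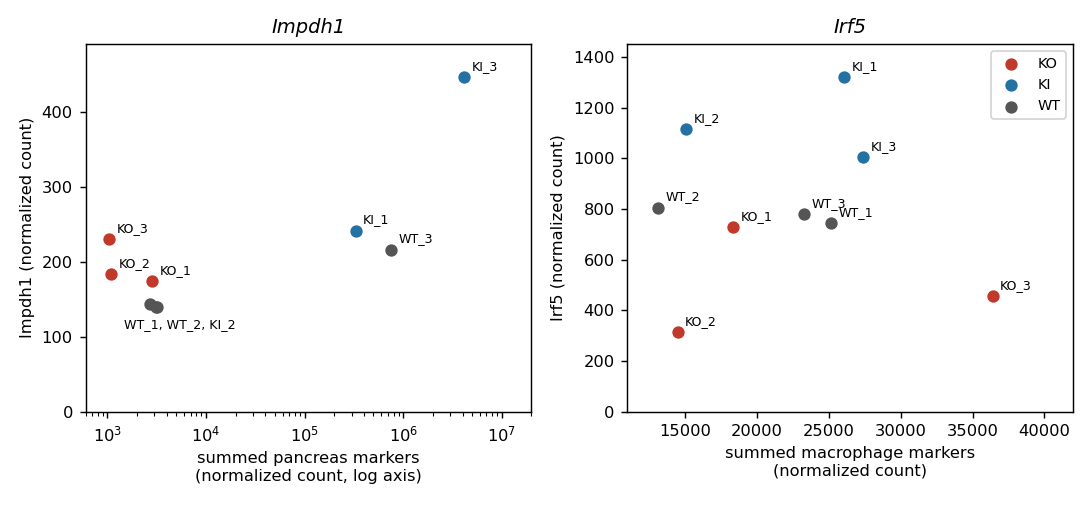
Left, the normalized count of Impdh1 against the summed normalized count of 14 exocrine pancreas markers (log axis). Right, Irf5 against the summed normalized count of 10 macrophage markers (linear axis). Each point is a library, coloured by group. KI_3 has the highest Impdh1 value, 446, and the highest pancreas sum, and the KO library with the highest macrophage sum, 36412, has an Irf5 value of 455.

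Set per kilobase of annotated exon, which allows a rough comparison of levels between genes, Calu was highest in WT with 1648 normalized counts per kb. Cald1 followed with 1126 and Fmc1 with 933. Irf5 with 267 and Tnpo3 with 254 were close to each other, and Cadps2 with 112, Exoc4 with 64.3 and Impdh1 with 50.5 were lower. Grm8 was at 0.913 per kb in WT and 6.20 per kb in KO, still the lowest of the 9 in KO. The lengths come from GENCODE M21, which need not be the annotation of the deposited table. They merge the exons of all annotated transcripts of a gene and can exceed the length of the transcript expressed in liver. Of the 9 genes, 4 span over 100 kb, namely Grm8 with 860 kb, Exoc4 with 725 kb, Cadps2 with 577 kb and Cald1 with 177 kb, against 18 of all 80 tested genes within 10 Mb. The median span was 69.1 kb for the 9 genes and 33.3 kb for the 80.

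In KO against WT, 5 of the 9 genes passed the limma test across all genes at an adjusted p under 0.05, Calu, Grm8, Cadps2 and Exoc4 as higher and Fmc1 as lower. Grm8 reached the minimum mean of 10 only through KO, with means of 7.88 in KI and 9.04 in WT. Over all 15238 genes tested, 8.83% were called, 4.63% as higher and 4.20% as lower. In KI against KO, 7 of the 9 were called, Irf5 and Fmc1 as higher and Calu, Cadps2, Grm8, Exoc4 and Cald1 as lower, beside 8.45% of all genes, 3.60% as higher and 4.85% as lower. In KI against WT, 0 of the 9 were called by limma, edgeR or DESeq2, 0 had an unadjusted p under 0.05, and 0.0263% of all genes were called by limma, 0.00656% as higher and 0.0197% as lower. The KO and WT libraries did not overlap for 7 of the 9, against 29.1% of all genes, and the KI and WT libraries for 2 of the 9, Irf5 as higher and Exoc4 as lower, against 19.6%, of which 9.47% were higher and 10.2% lower. The KI and KO libraries did not overlap for 8 of the 9, against 26.4%. The 5 calls in KO against WT became 1 without KO_2 or WT_1, 2 without KO_3 or WT_3, 3 without WT_2 and 6 without KO_1. The 7 calls in KI against KO became 3 without KI_1, KI_3 or KO_2, and 4 with only the groups compared in the fit. With the mean log2(value + 1) of the pancreas markers as a covariate they became 1. Without KI_1, KI_3 and WT_3 the log2 fold changes of KO against WT were 1.23 for Calu, 0.92 for Cadps2, 0.41 for Exoc4, 0.39 for Cald1 and -0.90 for Fmc1. These are close to the values over all libraries, but of the libraries left out only WT_3 enters that comparison. Since the genes were picked from these comparisons, nothing is read from these shares. The comparisons also share libraries, so the KI against KO values are not a second observation of the KO libraries.

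The neighbourhood as a whole, chosen by position alone, is a separate question. Within 10 Mb of the Snd1 gene body the annotation holds 291 genes, 116 of them protein coding, of which 107 were in the table and 80 were tested. In KO against WT, 9 of the 80 were called, 6 higher and 3 lower, which is 11.2% beside 8.83% of all genes. With the 9 picked genes set aside, 4 of the other 71 were called, which is 5.63%. The 9 had been picked for a difference in these comparisons, which lowers the share of the others by construction, so nothing is read from it, nor from the 2.82% in KI against KO. The median log2 fold change of those 71 was 0.0047, and their median absolute log2 fold change was 0.29, which the picking lowers too. Over all 80 the latter was 0.31, against 0.28 over all genes tested. It was 0.34 under 1 Mb, 0.37 from 1 to 5 Mb, 0.25 from 5 to 10 Mb and 0.37 from 10 to 20 Mb. By distance, 2 of 16 genes were called under 1 Mb, 3 of 23 from 1 to 5 Mb, 4 of 41 from 5 to 10 Mb, 7 of 87 from 10 to 20 Mb, 9 of 94 from 20 to 40 Mb and 56 of 503 farther along chromosome 6. These are shares of 12.5%, 13.0%, 9.76%, 8.05%, 9.57% and 11.1%, beside 8.75% of the 14200 genes on other chromosomes. The count of 9 was 1 without KO_2 (Calu), 5 without KO_3, 2 without WT_1, 5 without WT_2, 5 without WT_3, 18 without KO_1, and 0 with KI_1, KI_3 and WT_3 all left out, when 30 genes (0.197%) were called over the whole table and 18 of the 80 had an unadjusted p under 0.05.

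In KI against KO, 9 of the 80 neighbours were called, 3 higher and 6 lower (11.2% beside 8.45% of all genes), and 2 of the 71 others (2.82%). That count was 4 without KI_1, 3 without KI_3, 3 without KO_2 and 5 without KO_3. It was 0 with KI_1, KI_3 and WT_3 left out, when 4 genes were called over the whole table and 11 of the 80 had an unadjusted p under 0.05. In KI against WT, limma called 0 of the 80. There 8 had an unadjusted p under 0.05, edgeR called 0, and DESeq2 called 3, namely Hilpda and Ahcyl2 as higher and Tmem140 as lower.

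**Figure D3:**
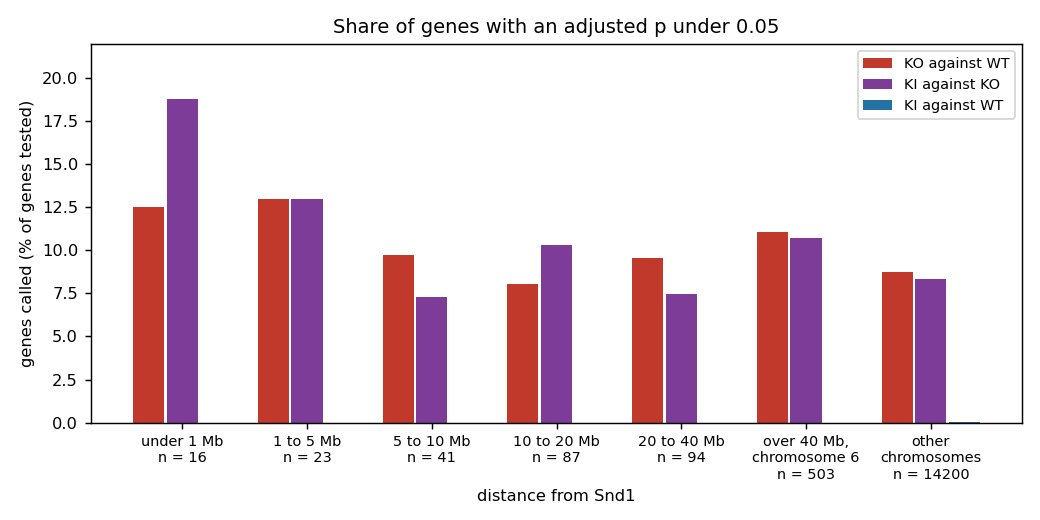
Percentage of tested genes called by limma at an adjusted p under 0.05 (y axis, from 0) by distance from the body of Snd1 (x axis), for the comparisons KO against WT, KI against WT and KI against KO. In KO against WT the bars run from 8.05% to 13.0% on chromosome 6, beside 8.75% on the other chromosomes, and the KI against WT bars are at or near 0.

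Of the genes that lie between Cadps2 and Fmc1, 61 were tested apart from the 9 and Snd1, and 4 of these were called in KO against WT. Of the 4, 1 was among the 5 tested genes between Cadps2 and Grm8, and 3 were among the 24 between Cald1 and Fmc1. Of the tested coding genes nearest to the 9 on either side, Ndufa5 beside Cadps2 was the one called in KO against WT. Zfp800, a zinc finger gene 105 kb from Grm8, averaged 579 ± 107 in KO, 537 ± 59.6 in KI and 508 ± 72.2 in WT. Hilpda, a lipid droplet gene 72.6 kb from Calu and 56.1 kb from Impdh1, averaged 101 ± 46.9 in KO, 160 ± 48.5 in KI and 64.9 ± 7.59 in WT (log2 fold change 0.54 for KO against WT, adjusted p = 0.368). Kcp, 18.7 kb from Irf5, averaged 127 ± 35.9 in KO, 75.1 ± 4.3 in KI and 72.3 ± 28.8 in WT (log2 fold change 0.84 for KO against WT, adjusted p = 0.14). Neither was called by limma. Atp6v1f, a subunit of the vacuolar proton pump 90.6 kb from Calu, averaged 1839 ± 119 in KO, 1874 ± 84.9 in KI and 1774 ± 132 in WT (log2 fold change 0.05 for KO against WT, adjusted p = 0.801). Chchd3, of the mitochondrial inner membrane scaffold, and Slc35b4, a nucleotide sugar transporter, flank Exoc4 and had log2 fold changes of -0.31 and 0.25 in KO against WT (adjusted p = 0.116 and 0.337). Luc7l2, a splicing gene 11.9 kb from Fmc1, had a log2 fold change of -0.08 (adjusted p = 0.819).

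The 4 other called neighbours in KO against WT lay 3.95 Mb or more from Snd1. Akr1d1, the 5-beta-reductase of bile acid synthesis, fell in KO, with 5798, 3656 and 2470 normalized counts in KO, against 9270, 12074 and 8776 in WT. Its log2 fold change was -1.41 ± 0.29 (limma adjusted p = 0.0166). The KI libraries, at 5720, 8495 and 5077, overlapped KO and lay below all WT libraries. The log2 fold change of KI against WT was -0.66 and was not called. Ndufa5, a subunit of respiratory complex I and the nearest tested gene to Cadps2 on its Snd1 side, fell to 1519 ± 231 in KO, against 2198 ± 236 in WT (log2 fold change -0.54 ± 0.13, adjusted p = 0.0325), and it was higher in KI than in KO by 0.56 (adjusted p = 0.0295). Atp6v0a4, a membrane subunit of the vacuolar proton pump best known from kidney, had 78.1, 547 and 426 normalized counts in KO, 31.1, 0 and 0 in KI and 0, 3.85 and 0 in WT. It rose in KO (adjusted p = 0.0112), and with WT at or near 0 the size of its log2 fold change, 7.29, depends on the pseudocount. Its pass of the filter on low values also rested on KO. The pseudogene Atp6v0c-ps2 rose to 1068 ± 168 in KO, against 623 ± 105 in WT (log2 fold change 0.78 ± 0.16, adjusted p = 0.0172). Its KI libraries, with a mean of 842 ± 52.6, overlapped KO and lay above all WT libraries. The log2 fold change of KI against WT was 0.45 and was not called. The Atp6v0c-ps2 values may include reads of its parent gene Atp6v0c. Without KO_2 the adjusted p was 0.0651 for Akr1d1, 0.104 for Ndufa5, 0.0605 for Atp6v0a4 and 0.076 for Atp6v0c-ps2. Without WT_1 it was 0.0563 for Akr1d1, 0.0573 for Ndufa5 and 0.0674 for Atp6v0c-ps2, and without WT_2 it was 0.0656 for Akr1d1 and 0.0922 for Ndufa5. Ndufa5 was also lost without KO_3 (0.0926) and without WT_3 (0.114), and in KI against KO without KI_1, KI_2, KI_3, KO_2 or KO_3 (0.0556 to 0.103). With only the groups compared in the fit its adjusted p was 0.072 in KO against WT and 0.0696 in KI against KO. With the mean log2(value + 1) of the pancreas markers as a covariate it was 0.0723 and 0.198. Without the 3 libraries with pancreatic transcripts the values ran from 0.0833 to 0.23.

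The window also holds Cpa1, which encodes a carboxypeptidase of pancreatic juice and lies 1.70 Mb from Snd1. It had 276643 and 21948 normalized counts in KI_3 and KI_1, 44333 in WT_3, and at most 14.4 in any other library. It was not called by limma, although its fitted log2 fold change in KO against WT, -6.31, was the largest among the uncalled genes of the window. Just past the limit of 10 Mb, Slc37a3, a sugar phosphate transporter gene 10.4 Mb away, rose in KO with a log2 fold change of 0.63 (adjusted p = 0.0127), while Parp12 at 10.2 Mb and Kdm7a at 10.2 Mb were not called. Inside the limit, Hipk2 at 9.76 Mb and Tbxas1 at 9.94 Mb were not called.

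**Figure D4:**
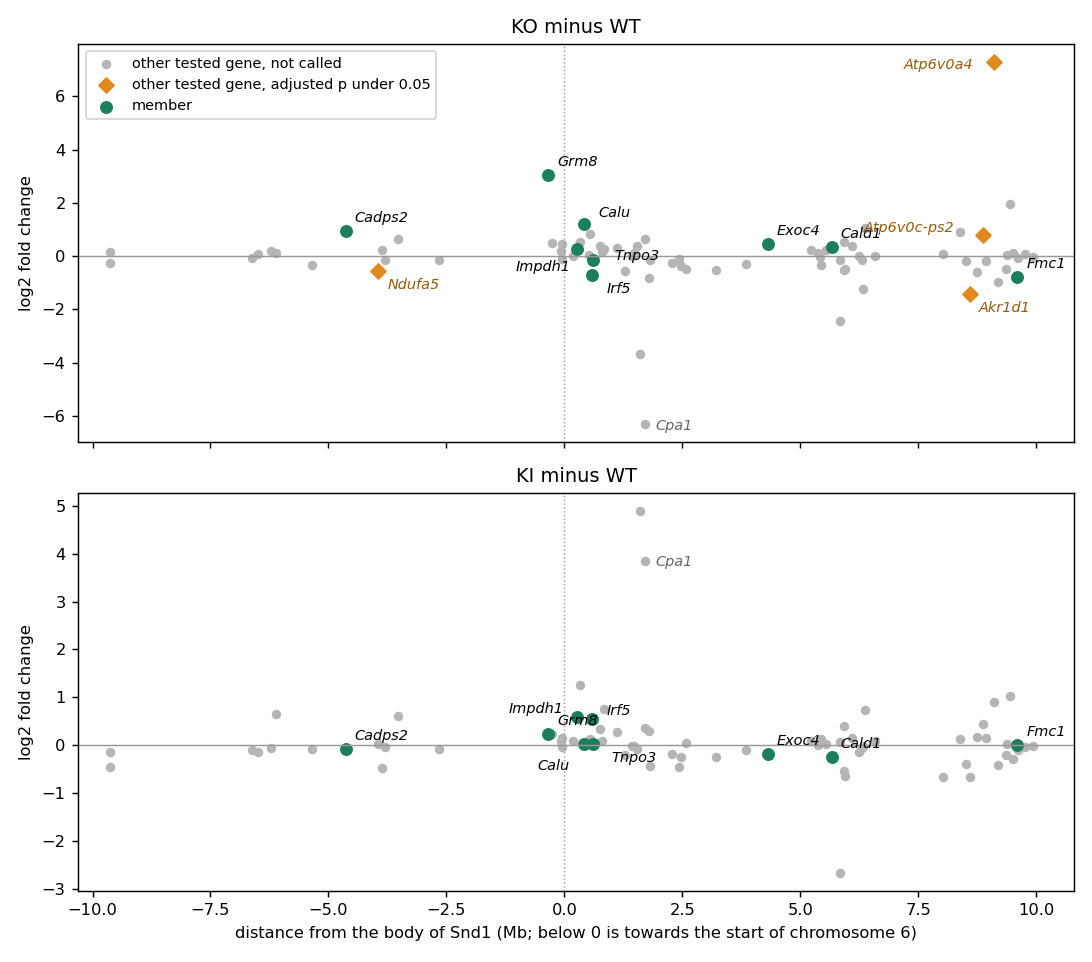
Log2 fold change of the 80 tested genes within 10 Mb of Snd1 (y axis) against signed distance from its gene body in Mb (x axis), for KO minus WT above and KI minus WT below. Green circles are the 9 described genes, orange diamonds other genes called by limma at an adjusted p under 0.05, and grey circles the rest. In KO minus WT, Grm8 lies at 3.04, Calu at 1.19 and Atp6v0a4 at 7.29, and in KI minus WT the 9 genes lie between -0.24 and 0.60.

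Genes that share a function with the 9 were counted in lists chosen by function, without the 9 themselves. Over all genes, 8.83% were called in KO against WT and 8.45% in KI against KO. None of the 8 other exocyst subunits was called in KO against WT, and their median log2 fold change was 0.16, with a range of -0.05 to 0.32. None of the 4 other calcium-binding proteins of the calumenin family was called (median 0.03), nor any of the 8 other interferon regulatory factors (median 0.12), and in these 3 lists the unadjusted p was under 0.05 for 0 genes and edgeR and DESeq2 called 0. In the interferon regulatory factors, KI against KO gave 0 calls by limma and edgeR and 3 by DESeq2, with 3 at an unadjusted p under 0.05. The 4 other priming factors of dense-core vesicles had a median of -0.09 and 0 calls by all 3 tools, with 0 at an unadjusted p under 0.05. The 4 other ATP synthase assembly factors had a median of -0.14 and 0 calls by all 3 tools, with 1 at an unadjusted p under 0.05. Grm8 was the 1 gene of its receptor group in the table.

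Of 12 partners of caldesmon on actin, limma called 3 as higher and 1 as lower in KO against WT, edgeR called 2 and DESeq2 called 4. Tpm1, a tropomyosin, rose to 2575 ± 568 in KO, against 1302 ± 77.1 in WT (log2 fold change 0.96, adjusted p = 0.00634). Actb, cytoplasmic actin, rose by 0.69 on the log2 scale (adjusted p = 0.0234), and Tpm3 by 0.33 (adjusted p = 0.0497). In KI against WT the log2 fold changes were 0.02 for Tpm1, 0.41 for Actb and 0.28 for Tpm3, none of them called. Cnn3, a calponin, fell by 0.58 (adjusted p = 0.0418). Purine and guanine nucleotide synthesis had 1 of 11 lower, namely Ppat, the first enzyme of purine synthesis, with 737 ± 127 in KO and 1253 ± 44.3 in WT (log2 fold change -0.78, adjusted p = 0.0132). In KI against KO, Atic, Ppat and Impdh2 of that list were higher, by 0.68, 0.93 and 0.61 (adjusted p = 0.0176, 0.00656 and 0.00968). Among 15 nuclear import receptors besides Tnpo3, 2 fell in KO against WT, Ipo5 with a log2 fold change of -0.85 (adjusted p = 0.00339) and Ipo7 with -0.43 (adjusted p = 0.033). In KI against KO, Ipo5, Ipo7 and Cnn3 were higher, by 0.51, 0.40 and 0.57 (adjusted p = 0.0301, 0.0442 and 0.0466), and Tpm1 was lower, at -0.94 (adjusted p = 0.00777). All of these calls were lost without the 3 libraries with pancreatic transcripts. In KO against WT, Ipo5 and Tpm1 were lost under no other setting. Ppat was lost without WT_1 (adjusted p = 0.051) or WT_3 (0.053), and Actb without KO_3 (0.06), WT_1 (0.0977) or WT_2 (0.0611). Ipo7 was lost without KO_2 (0.0922), KO_3 (0.0937), WT_1 (0.0808), WT_2 (0.105) or WT_3 (0.108), and Tpm3 and Cnn3 without any 1 library but KO_1 (0.0515 to 0.177). With only the groups compared in the fit, Actb (0.0624), Ipo7 (0.0697), Cnn3 (0.08) and Tpm3 (0.107) were lost. With the pancreas covariate Ipo7 (0.0615), Cnn3 (0.0618) and Tpm3 (0.0712) were lost, and with edgeR the same 3 genes (0.0549, 0.0605 and 0.053). Tpm3 was also lost with no filter (0.0697) and with the replicate block (0.0602). In KI against KO, Ppat, Impdh2 and Tpm1 kept the call without any 1 library, Atic lost it without KI_1 (0.0706) or KO_2 (0.0757), Ipo5 without any but KO_1, WT_2 and WT_3 (0.0542 to 0.0992), and Ipo7 and Cnn3 without any but KO_1 (0.0688 to 0.143). With the pancreas covariate all of these but Tpm1 were lost, at 0.055 for Ppat, 0.0608 for Impdh2, 0.0764 for Atic, 0.0841 for Ipo5, 0.168 for Ipo7 and 0.144 for Cnn3. With only the groups compared, Ipo5 (0.0779), Ipo7 (0.115) and Cnn3 (0.116) were lost. Ipo7 and Cnn3 were also lost with edgeR (0.067 and 0.0635) and with no filter (0.0574 and 0.0524), and Cnn3 with the replicate block (0.0503). In KI against WT no list had a call by limma, edgeR or DESeq2, beside 0.0263% of all genes by limma, and the unadjusted p was under 0.05 for 1 interferon regulatory factor, 4 nuclear import receptors and 2 actin partners.

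**Figure D5:**
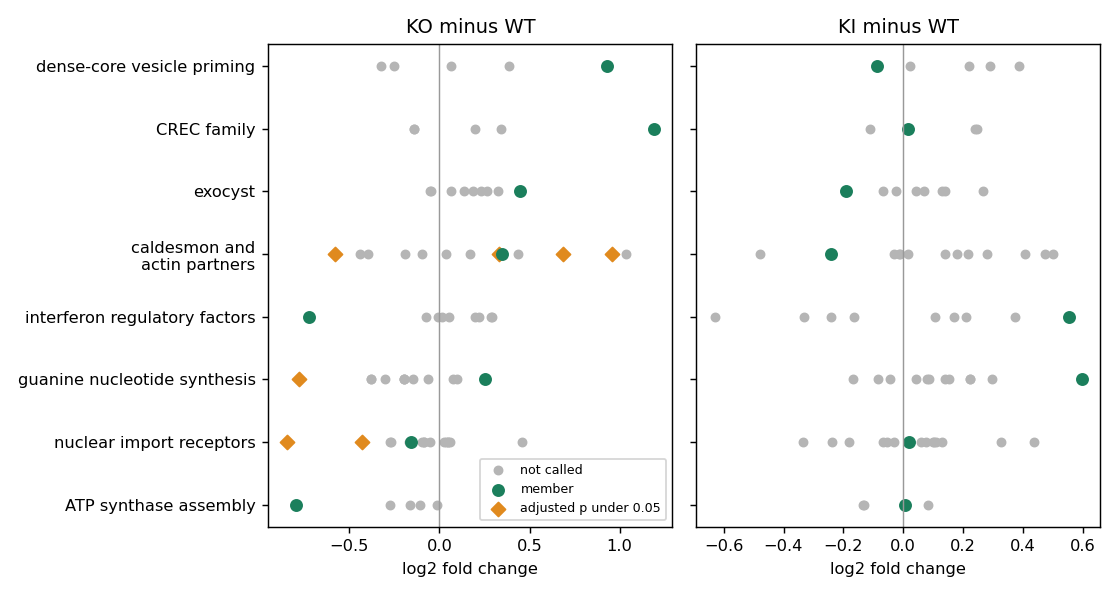
Log2 fold change (x axis) of KO minus WT (left) and KI minus WT (right) for the tested genes of each functional list (rows). Green circles are the described genes, orange diamonds relatives called by limma at an adjusted p under 0.05, and grey circles the other relatives. In KO minus WT the 8 other exocyst subunits lie between -0.05 and 0.32, with Exoc4 at 0.45, and the calumenin relatives between -0.14 and 0.34, with Calu at 1.19.

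The genes whose profile over the 9 libraries was most like each of the 9, by Pearson's r of log2(value + 1) among tested genes with a mean of at least 50, are given as a description. Calu was most like Cntnap1 (r = 0.995) and Fgg, the fibrinogen gamma chain (r = 0.994). Cntnap1 averaged 1242 normalized counts in KO, 74.1 in KI and 80.4 in WT. Cadps2 was most like Kng2, a kininogen, and Serpina3n, a protease inhibitor (r = 0.986 for both). Serpina3n averaged 197053 in KO, 18154 in KI and 20580 in WT. Fmc1 was most like Adh1, an alcohol dehydrogenase (r = 0.989), which averaged 22175 in KO, 48167 in KI and 50930 in WT, and Mrpl23 (r = 0.977). Irf5 was closely alike to Noc2l (r = 0.972), Exoc4 like Tpst2 (r = 0.972) and Hapln4 (r = 0.965), and Cald1 like Spata13 (r = 0.980) and Herc4 (r = 0.979). Grm8 was most like Nup98 (r = 0.969), Impdh1 like Ggh (r = 0.946), and Tnpo3 was closely alike to Dnajb14 (r = 0.954). None of the 18 most alike genes lies on chromosome 6. Of all 15238 genes tested, 14200 were placed on other chromosomes, so nothing is read from this. The 9 libraries share 3 genotypes, so genes with KO apart from KI and WT share that difference with Calu.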

How the data were processed

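RNA from 9 livers, 3 each of KO, KI and WT, was made into libraries with a stranded mRNA kit, per the labels' protocols. Per the submitters' processing notes, TopHat2 and Bowtie2 aligned the reads to GRCm38 and featureCounts counted them. Versions, annotation, strand setting and scaling tool are not given in the sources used here. The authors deposited 1 table of normalized counts, a signal per gene and library. Its values were whole multiples of 1 step per library (tolerance 0.0051, 6 values excepted), so whole reads could be recovered.

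With limma 3.58.1 in R 4.3.3, log2(value + 1) was fitted for the 15238 genes with a mean of at least 10, with 1 mean per group and 6 residual degrees of freedom. Tests were two-sided with Benjamini-Hochberg adjustment, and genes were called at an adjusted p under 0.05. Errors of log2 fold changes are standard errors. edgeR 4.0.16 and DESeq2 1.42.0 on recovered reads, other filters and pseudocounts, a pancreas covariate, left-out libraries and other windows were alternatives. The fit was tested on simulated data for KO against WT. It recovered 10.4% of 67 genes changed 1.5-fold, 50% of 72 changed 2-fold and 91.8% of 61 changed 4-fold, with 12 false calls. A gene that was not called can therefore still differ.

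Genes were placed on GRCm38 with GENCODE M21, 19249 by identifier and 22 by RefSeq symbol, and 673 were not placed. Distance is the gap between gene bodies. Promoters came from RefSeq on GRCm38.p6, all 9 matched by symbol. The 9 genes, the gene lists, the markers and the motifs were chosen with earlier results of these data known. Named neighbours were up to 6 called genes per direction with the smallest adjusted p, the nearest tested coding genes of each member, up to 3 called genes per list with the smallest adjusted p, and 2 alike genes per member. Predicted genes were counted but not named. Cnn3, Hilpda, Ahcyl2, Tmem140, Cpa1, Slc37a3, Parp12, Kdm7a, Hipk2 and Tbxas1 were named after their values were seen. Libraries are named by the numbers in their titles, which differ from those of the table's columns. Deviations from the group means of same-numbered libraries correlated between -0.14 and 0.57, and those of differently numbered libraries of 2 groups between -0.62 and 0.32. The highest values were those of KI_3 with WT_3 (0.57) and KI_2 with WT_2 (0.53). The main fit does not pair libraries by number, and counts with the number as a block are given below. Whether same-numbered libraries share a factor was not tested. A few results that the rule would name are not reported here.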

Additional observations from a re-analysis of the deposited data

How the results depend on the processing

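Over all alternatives, 459 values of the log2 fold changes of the 9 genes were computed, of which 450 moved by less than 1 SD between replicates, 9 moved by more and 0 turned round a called value. Some uncalled values changed sign, among them Impdh1, Cadps2 and Cald1 in KI against WT, which were -0.02, 0.09 and 0.08 without the 3 libraries with pancreatic transcripts. For the 4 named neighbours, 171 of 204 values kept their side of the threshold, 32 lost the call and 1 gained it. Only the 4 genes in KO against WT, and Ndufa5 and Atp6v0a4 in KI against KO, had a call to lose. The 32 losses fall on those values alone, and the rest of the 204 were uncalled from the start. For KO against WT, the count over all genes, 1346, became 2292 with DESeq2, 871 with only the groups compared in the fit, 30 without the 3 libraries with pancreatic transcripts and 501 to 2516 with single libraries left out. Within 10 Mb the count of 9 became 17 with DESeq2, 0 without the 3 libraries (18 at an unadjusted p under 0.05) and 1 to 18 with single libraries left out. It was 5 within 5 Mb and 16 within 20 Mb. For KI against WT, the 4 genes called overall became 385 with DESeq2, 1 with edgeR, 8 with no filter, 28 with only the groups compared, 0 with the pancreas covariate, 0 without the 3 libraries and 0 to 35 with single libraries left out. Within 10 Mb the 0 calls of limma became 3 with DESeq2 and stayed 0 to 0 with single libraries left out. For KI against KO, 1287 became 2286 with DESeq2, 608 with only the groups compared, 274 with the pancreas covariate, 4 without the 3 libraries and 400 to 2301 with single libraries left out. Within 10 Mb the count of 9 became 5 with only the groups compared, 1 with the covariate, 0 without the 3 libraries and 3 to 12 with single libraries left out, and it was 18 within 20 Mb. The fit without the 3 libraries leaves 1 KI library, assumed to vary like the other groups. With the replicate number as a block the counts over all genes were 1551 for KO against WT, 3 for KI against WT and 1500 for KI against KO, and within 10 Mb they were 12, 0 and 11. In their deviations from the group means, KO_1, KI_1 and WT_1 correlated best with a library of another number. Every other library correlated best with a library of its own number. Fewer samples enter the fits with libraries left out, and the causes of the other moves were not tested. Depth limits Grm8 and Atp6v0a4, which rest on few reads in KI and WT.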
